A study of Vitis vinifera with 9 samples.

Results

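The genes described here carry the annotation of 4 growth hormones, auxin, gibberellin, brassinosteroid and cytokinin, in leaves of the grapevine Vitis vinifera 'Hongbaladuo' before and after ultraviolet C (UV-C) irradiation. A probe set of the Affymetrix grape array is a group of oligonucleotides that together measure 1 transcript. Probe sets were taken where the gene title or the target description of the annotated tables held, in any case, one of the words auxin, SAUR, indole-3-acetic, gibberellin, GASA, brassinosteroid, cytokinin or DELLA. The rule found 38 of the 10471 annotated probe sets, 29 for auxin, 4 for gibberellin, 2 for brassinosteroid and 3 for cytokinin, and none fell under more than 1 hormone. They stand for 34 gene symbols and 1 probe set with no symbol, since 3 genes were each read by a pair of probe sets, called A and B here. The match by word used no expression value, but the choice was made with earlier results of these data known. The annotated tables also held mainly bright probe sets: their median log2 intensity over the 9 arrays was 8.42, against 3.58 for the probe sets outside them.

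All leaves were 30 days old, were detached from field-grown vines in the morning, stood in water and spent a short time in the dark at 25 °C. The groups measured were control leaves at 0 h, and leaves 6 h and 12 h after the start of a treatment with 6 W per m2 of UV-C for 10 min on the lower leaf surface. Each group had 3 replicates of 6 leaves, each on its own array, which leaves 9 arrays in all. Unirradiated leaves held for 6 or 12 h were not among the arrays, so UV-C cannot be told apart from time since detachment or time of day. Every level below is a log2 RMA intensity, in which a difference of 1 is a 2-fold change. A probe set was called up- or down-regulated where limma gave a Benjamini-Hochberg adjusted p under 0.05 over all 16436 probe sets tested and the change was at least 2-fold. Errors of changes are standard errors (SE) from that fit with n = 3 arrays per group.

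Auxin reaches its target cells partly through efflux carriers and is sensed by TIR1-type receptors, which then mark the Aux/IAA repressors for degradation and so release the auxin response factors (ARFs). Many Aux/IAA and SAUR genes are themselves early auxin-induced genes, and SAUR proteins and expansins are known for their part in cell expansion. Gibberellin acts by removing DELLA repressors and is inactivated by gibberellin 2-oxidases, brassinosteroids are steroids perceived at the cell surface by the BRI1 receptor kinase, and cytokinins are perceived by histidine kinases and broken down by cytokinin oxidases. These roles come mostly from Arabidopsis. The member titles rest on weak similarity to an Arabidopsis protein for 20 probe sets and on moderate similarity for 17, so a name such as IAA16-like says which protein was the best match.

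Most hormone genes lost transcript after UV-C. Of the 38 probe sets, 22 (57.9%) were down-regulated at 6 h and 6 (15.8%) up-regulated; the background was 14.7% down and 11.9% up over all probe sets tested, and 21.1% down and 17.8% up over the annotated ones. At 12 h, 23 (60.5%) were down-regulated and 7 (18.4%) up-regulated, against 17.5% and 14.7% of all probe sets and 25.1% and 21.6% of the annotated ones. The share that rose was thus close to the background at both times, and the share that fell was above it. The median log2 change of the members was −1.18 at 6 h and −1.71 at 12 h, beside −0.03 and 0.05 over all probe sets tested. With probe sets of 1 gene averaged, 19 of 35 genes fell at 6 h and 20 at 12 h. Both times are set against the same control arrays: 21 probe sets were down-regulated at both, 6 were up-regulated at both, 1 was called at 6 h alone, 3 at 12 h alone and 7 at neither. The same joint patterns were not counted over all probe sets, so whether these numbers are unusual is not known.

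**Figure D1:**
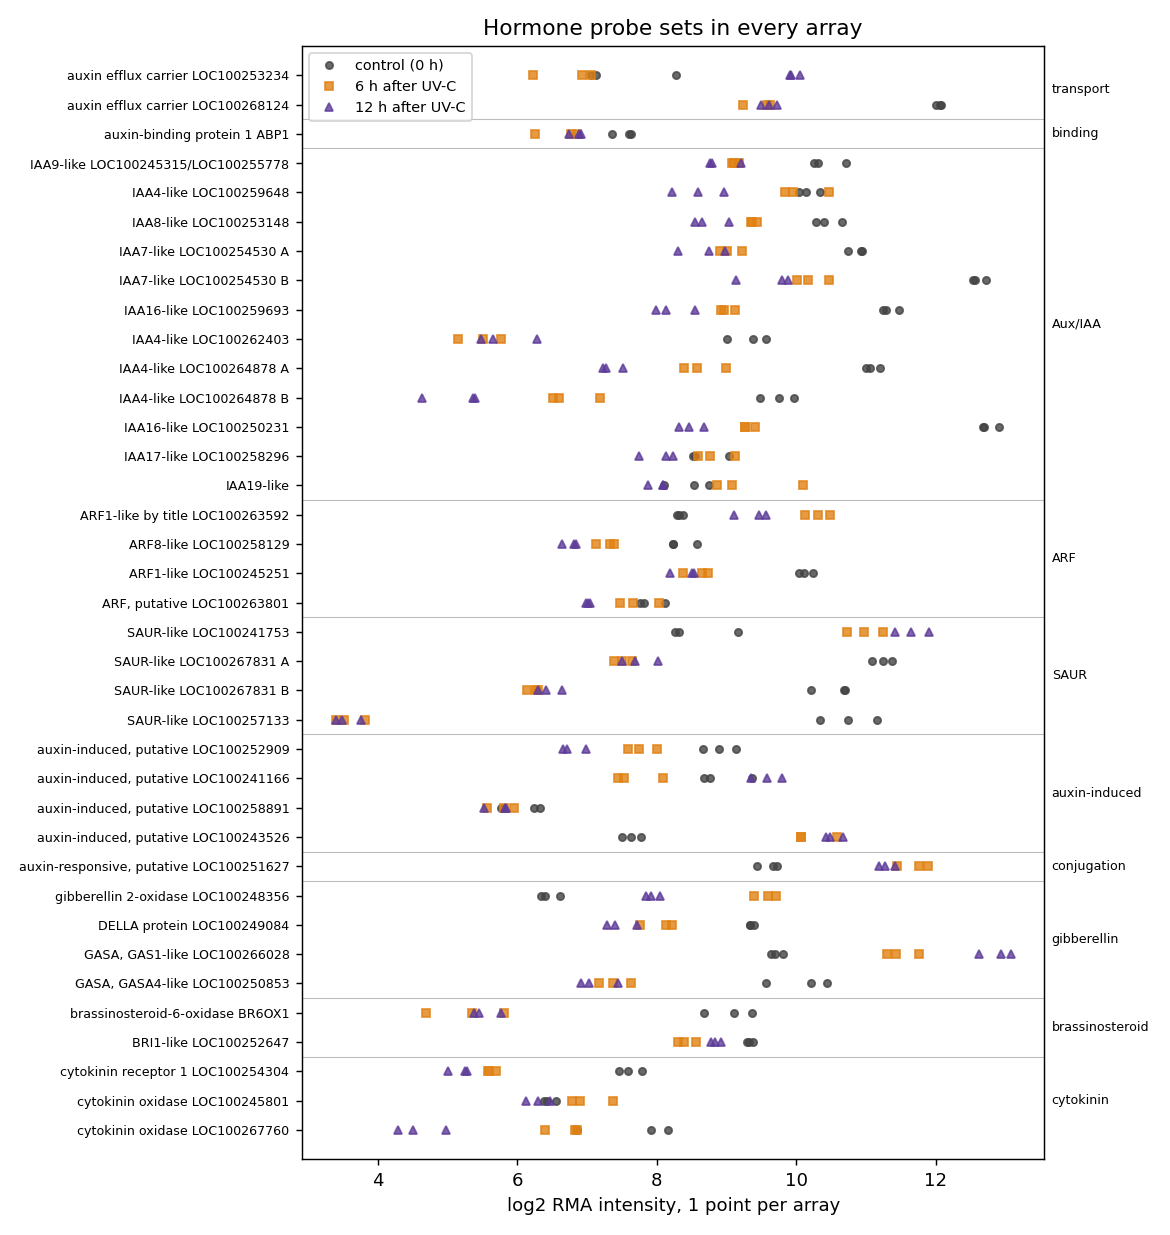
Log2 RMA intensity (x axis) of 37 of the 38 hormone probe sets (rows, by role) in each of the 9 arrays; circles are control leaves, squares 6 h and triangles 12 h after UV-C. In most Aux/IAA rows the control points lie to the right of all irradiated points, while the rows of gibberellin 2-oxidase and of the GAS1-like gene show the opposite.

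Other features of the leaves moved with the groups. The summed intensity of the 8 leaf marker probe sets, which encode light-harvesting and related photosynthesis proteins, was 63639 to 73692 in control leaves, 28530 to 32936 at 6 h and 7348 to 10441 at 12 h. All 8 (100%) were down-regulated at 12 h and 5 (62.5%) at 6 h, against 25.1% and 21.1% of the annotated probe sets. Several of the 8 read the same genes, LHCA1 and LHCA3, so the sum counts those transcripts more than once. None of the 8 was at or near 0 in the control leaves. The 3 vascular markers, sucrose transporters, summed to 1472 to 1536, 1510 to 1743 and 1035 to 1320, and the 2 epidermal markers to 1808 to 2058, 916 to 1477 and 1508 to 1791. Of the epidermal markers, LOC100247295 is listed by the study as a chalcone synthase, an enzyme of flavonoid synthesis. It fell 2.05-fold and 2.09-fold, while the other was not called, so the epidermal sum is not one of tissue markers alone. The log2 ratio of the 3′ over the 5′ GAPDH control probe sets, a sign of RNA and labelling quality, was 2.05 to 2.22 in the control arrays and 1.97 to 2.17 at 6 h, but 1.26 to 1.47 at 12 h. The part of these shifts in the hormone results was not tested, and fewer cells of a type cannot be told apart from less RNA per cell.

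Members titled as auxin transport proteins, which the study's annotation lists as auxin efflux carriers, did not all move the same way. The carrier LOC100268124 measured 12.00, 12.06 and 12.08 in control leaves, 9.58, 9.62 and 9.23 at 6 h and 9.61, 9.72 and 9.49 at 12 h. All irradiated arrays lay below all control arrays. It fell 5.93-fold at 6 h (log2 −2.57 ± 0.12, adjusted p = 1.16e-07) and 5.43-fold at 12 h (−2.44 ± 0.12, adjusted p = 9.75e-08), and the 6 h and 12 h arrays overlapped.

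The carrier LOC100253234 went the other way. Its control values were 7.05, 7.13 and 8.28, so replicate 3 stood about 1 log2 unit above the others, and the 6 h values of 6.22, 6.93 and 7.06 overlapped them (log2 −0.75 ± 0.32, adjusted p = 0.0775). At 12 h it reached 10.05, 9.93 and 9.91, above every other array, a 5.56-fold rise over the control (2.47 ± 0.32, adjusted p = 8.29e-05). The 9.33-fold difference between 12 h and 6 h was larger than that of any other member (3.22 ± 0.32, adjusted p = 0.00015). Its probe set is of the type that can bind more than 1 transcript.

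On the receptor side, the auxin-binding protein gene ABP1 was 7.62, 7.61 and 7.36 in the control, 6.86, 6.26 and 6.77 at 6 h and 6.74, 6.92 and 6.89 at 12 h. Arrays before and after irradiation did not overlap, but the 1.87-fold and 1.60-fold differences (adjusted p = 0.000846 and 0.00421) stayed under the 2-fold limit. The 6 h log2 change of −0.90 became −1.02 without 6 h replicate 1 and −1.06 with arrays centred on the hybridization controls, and was then called. ABP1 is an auxin-binding protein of the endoplasmic reticulum and cell wall. The TIR1-type receptor genes, which the word rule did not catch, are given with the other pathway genes.

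The Aux/IAA repressors were the largest group, with 12 probe sets. At 6 h, 9 of them (75.0%) were down-regulated and none up-regulated, against 14.7% down of all probe sets tested and 21.1% of the annotated ones. At 12 h 10 (83.3%) were down-regulated and none up-regulated, against 17.5% and 25.1% down. The median log2 changes were −2.08 and −2.60. The largest fall at 12 h was that of the IAA4-like gene LOC100264878. Its probe set B read 9.97, 9.75 and 9.47 in control leaves, 6.59, 6.51 and 7.19 at 6 h and 5.39, 5.37 and 4.63 at 12 h, without overlap between any of the groups. It was down-regulated 7.83-fold at 6 h (log2 −2.97 ± 0.25, adjusted p = 4.52e-06) and 24.3-fold at 12 h (−4.60 ± 0.25, adjusted p = 1.53e-07). Probe set A of the same gene fell 5.41-fold and 13.4-fold, from 11.00, 11.05 and 11.20 to 8.39, 8.58 and 8.98 and then to 7.51, 7.27 and 7.23. The stepwise order was thus the same with both probe sets.

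The IAA16-like gene LOC100250231 was among the steepest falls as well. It was measured at 12.67, 12.68 and 12.90 in the control, at 9.41, 9.26 and 9.26 at 6 h and at 8.32, 8.46 and 8.67 at 12 h. That is a fall of 10.9-fold (log2 −3.44 ± 0.12, adjusted p = 1.94e-08) and 19.2-fold (−4.27 ± 0.12, adjusted p = 3.64e-09). A second IAA16-like gene, LOC100259693, went from 11.24, 11.47 and 11.29 to 9.11, 8.92 and 8.96 and to 7.99, 8.14 and 8.55, a fall of 5.04-fold and 8.61-fold. Both genes were lower in every 12 h array than in every 6 h array, by 1.77-fold and 1.71-fold, below the limit for a call.

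The other Aux/IAA genes called at 6 h fell at both times. The IAA4-like LOC100262403 dropped from 9.01, 9.57 and 9.38 to 5.16, 5.51 and 5.77 at 6 h and 5.48, 6.29 and 5.65 at 12 h, a fall of 14.3-fold and 11.4-fold. Its 6 h fall was the largest among the Aux/IAA probe sets, and its 6 h and 12 h arrays overlapped. Both probe sets of the IAA7-like LOC100254530 fell, A by 3.54-fold and 4.57-fold and B by 5.23-fold and 7.99-fold. In probe set B the arrays ranged from 12.53 to 12.71 in the control, 10.01 to 10.46 at 6 h and 9.14 to 9.88 at 12 h. The IAA9-like probe set, which the annotation assigns to both LOC100245315 and LOC100255778, fell 2.47-fold and 2.84-fold, from 10.25 to 10.71 in the control to 9.08 to 9.17 and 8.76 to 9.21. The IAA8-like LOC100253148 ran from 10.28 to 10.65 in the control, 9.36 to 9.43 at 6 h and 8.54 to 9.04 at 12 h. It was down-regulated 2.09-fold at 6 h (adjusted p = 0.00016) and 3.25-fold at 12 h, and the 6 h call was lost without control replicate 3 and with arrays centred on their medians, when the log2 changes were −0.96 and −0.93.

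The other 3 Aux/IAA probe sets behaved differently at 6 h. The IAA4-like LOC100259648 was 10.13, 10.35 and 10.04 in the control and 9.84, 10.47 and 9.96 at 6 h, which overlap (log2 −0.08 ± 0.21, adjusted p = 0.782), and then 8.22, 8.59 and 8.96 at 12 h, a 3.00-fold fall (−1.58 ± 0.21, adjusted p = 0.000105). The IAA17-like LOC100258296 measured 9.03, 8.53 and 8.55 in the control, 8.77, 9.12 and 8.60 at 6 h and 8.13, 8.23 and 7.74 at 12 h. Its 1.59-fold lower level at 12 h (adjusted p = 0.0134) was not a call. The IAA19-like probe set, which has no gene symbol, read 8.10, 8.54 and 8.75 in the control and 10.10, 9.08 and 8.86 at 6 h, where replicate 1 lay about 1 log2 unit above the others. Its 12 h values of 8.08, 7.88 and 8.09 were below all others. Neither difference from the control was called (log2 0.88 ± 0.29, adjusted p = 0.0277, and −0.45 ± 0.29, adjusted p = 0.222), but 12 h was 2.52-fold below 6 h (−1.33 ± 0.29, adjusted p = 0.00798), and without 6 h replicate 1 the difference was −0.95 and was no longer called. At 6 h it crossed 2-fold upwards without control replicate 3, without 6 h replicate 2 or 3, or with arrays centred on their medians, with log2 changes of 1.03, 1.02, 1.13 and 1.02.

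Several Aux/IAA genes lie side by side. In the RefSeq annotation of assembly ASM3070453v1, used here for gene order only, 32 of the 34 symbols were found, and 3 pairs of Aux/IAA members had 0 genes between them. LOC100250231 (IAA16-like) neighbours LOC100262403 (IAA4-like), LOC100259693 (IAA16-like) neighbours LOC100264878 (IAA4-like), and LOC100254530 (IAA7-like) neighbours LOC100259648 (IAA4-like). Both genes fell at both times in the first and second pairs. In the third pair the IAA7-like gene fell at 6 h, when its IAA4-like neighbour had a log2 change of −0.08, and both had fallen by 12 h.

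**Figure D2:**
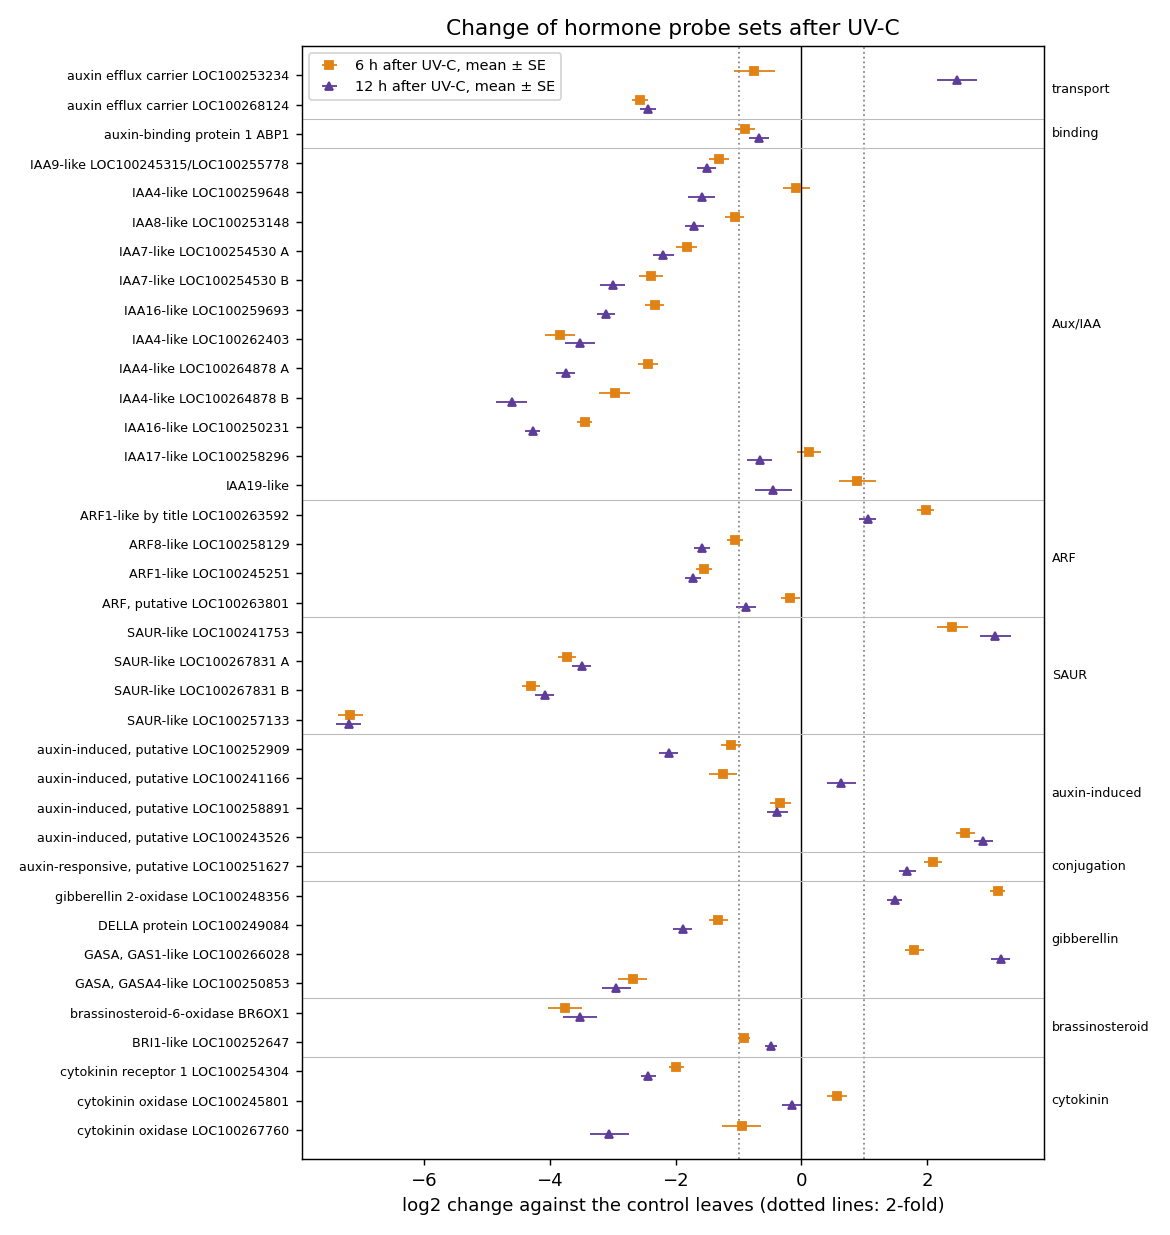
Log2 change against the control leaves (x axis) of 37 of the 38 hormone probe sets at 6 h (squares) and 12 h (triangles), as limma estimates with bars of 1 SE, n = 3 arrays per group; dotted lines mark 2-fold. The SAUR-like LOC100257133 lies farthest to the left at −7.16 and −7.19, estimates that may understate the fall since its irradiated arrays were near the level of dim probe sets, and the GAS1-like LOC100266028 farthest to the right at 12 h, at 3.16.

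Auxin response factors are the transcription factors that the Aux/IAA proteins hold back. Of the 4 probe sets with that title, 2 were down-regulated at both times. The ARF1-like LOC100245251 went from 10.11, 10.24 and 10.04 to 8.64, 8.38 and 8.73 and to 8.19, 8.53 and 8.51, a fall of 2.92-fold (log2 −1.55 ± 0.13, adjusted p = 5.51e-06) and 3.30-fold (adjusted p = 1.89e-06). The ARF8-like LOC100258129 had control values of 8.23, 8.57 and 8.23, 6 h values of 7.39, 7.13 and 7.32 and 12 h values of 6.64, 6.82 and 6.84. It fell 2.09-fold at 6 h, a call that was lost without control replicate 2 or 6 h replicate 2 (log2 −0.95 and −0.99) and with arrays centred on their medians (−0.93), and 2.99-fold at 12 h. The putative ARF LOC100263801 overlapped the control at 6 h and lay below it at 12 h, at 7.02, 6.98 and 7.04 against 7.81, 8.11 and 7.76, a 1.84-fold difference that was not called (log2 −0.88, and −1.02 with a call when arrays were centred on the hybridization controls).

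The fourth probe set, LOC100263592, was up-regulated, but its identity is unsettled: the array annotation gives weak similarity to ARF1, while the study's annotation calls it an aldehyde dehydrogenase. It stood at 8.31, 8.29 and 8.38 in the control, 10.12, 10.48 and 10.30 at 6 h and 9.56, 9.46 and 9.11 at 12 h. This was a rise of 3.93-fold (log2 1.97 ± 0.14, adjusted p = 1.43e-06) and 2.07-fold (1.05 ± 0.14, adjusted p = 9.29e-05). The 12 h call was lost without 12 h replicate 1 and with arrays centred on the hybridization controls, at log2 changes of 0.95 and 0.91. From 6 h to 12 h it went down by 1.90-fold (log2 −0.93), which passed 2-fold without 6 h replicate 1 or 12 h replicate 1 (−1.01 and −1.02).

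SAUR genes encode small proteins that auxin induces within minutes and that act in cell expansion in Arabidopsis. The 4 probe sets grouped here are titled as auxin-regulated proteins, and the study's annotation places LOC100257133 and LOC100241753 in the SAUR-like family; LOC100267831 matches the same Arabidopsis protein as LOC100241753. LOC100257133 had the steepest fall of all members. It was 10.34, 11.16 and 10.74 in control leaves and then 3.82, 3.52 and 3.41 at 6 h and 3.40, 3.50 and 3.76 at 12 h, close to the median of 3.58 for probe sets outside the annotated tables. Its 6 h and 12 h arrays overlapped. LOC100267831 fell with both probe sets. Probe set B dropped from 10.68, 10.70 and 10.21 to 6.27, 6.30 and 6.14 and to 6.42, 6.29 and 6.65, which is 19.6-fold (log2 −4.30 ± 0.15, adjusted p = 2.04e-08) and 16.9-fold (−4.08 ± 0.15, adjusted p = 1.59e-08), and probe set A dropped 13.2-fold and 11.3-fold.

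LOC100241753 rose instead. Its control arrays read 9.16, 8.32 and 8.26, its 6 h arrays 10.97, 10.73 and 11.24 and its 12 h arrays 11.90, 11.41 and 11.65. It was up-regulated 5.27-fold at 6 h (log2 2.40 ± 0.24, adjusted p = 1.99e-05) and 8.43-fold at 12 h (3.08 ± 0.24, adjusted p = 2.48e-06). The 12 h arrays lay above the 6 h arrays by 1.60-fold, which did not pass the test (adjusted p = 0.0669). So 2 SAUR-like genes whose best Arabidopsis match was the same protein moved in opposite directions.

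The other 5 auxin members carry general titles, and the study's annotation names 3 of them as enzymes. The putative auxin-responsive protein LOC100251627, which that annotation names a jasmonic acid-amino acid-conjugating enzyme, was 9.67, 9.44 and 9.72 in the control, 11.76, 11.89 and 11.44 at 6 h and 11.18, 11.42 and 11.27 at 12 h. It rose 4.25-fold (log2 2.09 ± 0.14, adjusted p = 9.99e-07) and 3.20-fold (adjusted p = 3.04e-06). Enzymes of this family join hormones such as jasmonic acid to amino acids. The other 4 are titled auxin-induced proteins, and LOC100252909 and LOC100241166 of them are listed as NAD(P)-linked oxidoreductases.

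These 4 auxin-induced proteins showed 4 different courses. LOC100243526 rose 6.07-fold and 7.41-fold, from 7.50, 7.77 and 7.63 to 10.58, 10.07 and 10.06 and to 10.42, 10.67 and 10.48 (log2 2.60 ± 0.15 and 2.89 ± 0.15, adjusted p = 4.68e-07 and 1.43e-07). LOC100258891, from which it is separated by 3 genes in the RefSeq annotation, was 6.24, 6.33 and 5.77 in the control, 5.82, 5.56 and 5.95 at 6 h and 5.53, 5.83 and 5.84 at 12 h, and all 3 groups overlapped. LOC100252909 fell 2.17-fold and 4.32-fold, from 9.13, 8.89 and 8.66 to 7.75, 7.58 and 8.00 and to 6.65, 6.71 and 6.99. Its 6 h change dropped just under 2-fold without control replicate 1, and was −0.98 on the log2 scale with arrays centred on their medians. The 12 h level was 1.99-fold below the 6 h level (log2 −0.99), and passed 2-fold without 6 h replicate 1 or 2 or 12 h replicate 3 (−1.01, −1.09 and −1.09).

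LOC100241166 fell and came back. It was 8.68, 8.77 and 9.37 in control leaves, 7.44, 8.09 and 7.54 at 6 h, and 9.36, 9.58 and 9.79 at 12 h. All 6 h arrays were below all control arrays (2.38-fold, log2 −1.25 ± 0.22, adjusted p = 0.000911), whereas the 12 h arrays overlapped them (0.64 ± 0.22, adjusted p = 0.0335). It was the only member called at 6 h and not at 12 h.

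The 4 gibberellin members were all called at both times, 2 up and 2 down. The gene for gibberellin 2-oxidase, LOC100248356, whose enzyme inactivates gibberellins, rose from 6.62, 6.39 and 6.34 to 9.71, 9.40 and 9.59 at 6 h and stood at 7.92, 7.84 and 8.04 at 12 h. No 2 groups overlapped. The rise was 8.67-fold at 6 h (log2 3.12 ± 0.12, adjusted p = 3.53e-08) and 2.79-fold at 12 h (1.48 ± 0.12, adjusted p = 2.72e-06). The DELLA gene LOC100249084, for a repressor of gibberellin responses, went down from 9.34, 9.39 and 9.33 to 8.21, 7.75 and 8.13 and to 7.28, 7.71 and 7.41. It fell 2.50-fold (adjusted p = 3.74e-05) and 3.70-fold (adjusted p = 2.20e-06).

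The GASA genes encode small cysteine-rich peptides, named for their regulation by gibberellin in Arabidopsis, and the members with that title moved in opposite directions. The GAS1-like LOC100266028 rose in steps, from 9.69, 9.63 and 9.80 in the control to 11.42, 11.30 and 11.76 at 6 h and 12.93, 12.62 and 13.07 at 12 h, with no overlap between groups. It rose 3.45-fold (log2 1.79 ± 0.15, adjusted p = 5.10e-06) and 8.96-fold (3.16 ± 0.15, adjusted p = 7.38e-08). The GASA4-like LOC100250853 fell 6.42-fold (−2.68 ± 0.23, adjusted p = 5.83e-06) and 7.68-fold (−2.94 ± 0.23, adjusted p = 2.22e-06), from 9.57, 10.21 and 10.44 to 7.62, 7.37 and 7.18 and to 6.92, 7.03 and 7.44. Its 6 h and 12 h arrays overlapped.

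Of the 2 brassinosteroid members, the synthesis gene fell and the receptor-like gene was not called. BR6OX1 encodes brassinosteroid-6-oxidase, a cytochrome P450 that acts late in brassinosteroid synthesis. It was 9.36, 9.10 and 8.67 in the control, 5.35, 5.81 and 4.70 at 6 h and 5.45, 5.38 and 5.76 at 12 h. It fell 13.5-fold (log2 −3.76 ± 0.27, adjusted p = 1.71e-06) and 11.4-fold (−3.51 ± 0.27, adjusted p = 1.95e-06). The BRI1-like receptor kinase gene LOC100252647 read 9.38, 9.32 and 9.29 in the control, 8.56, 8.40 and 8.30 at 6 h and 8.83, 8.93 and 8.78 at 12 h. Its groups did not overlap, at 1.88-fold below the control at 6 h (adjusted p = 2.72e-05) and 1.40-fold below at 12 h (adjusted p = 0.00157), and with arrays centred on the hybridization controls the 6 h log2 change was −1.08 and was called.

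The cytokinin receptor 1 gene LOC100254304, for a histidine kinase, went from 7.46, 7.59 and 7.79 to 5.59, 5.70 and 5.58 at 6 h and 5.29, 5.26 and 5.01 at 12 h. It fell 3.97-fold (log2 −1.99 ± 0.12, adjusted p = 4.97e-07) and 5.39-fold (−2.43 ± 0.12, adjusted p = 8.40e-08). The 2 cytokinin oxidase genes, whose enzymes degrade cytokinin, differed in course. LOC100267760 was 8.16, 6.86 and 7.91 in the control, with replicate 2 about 1 log2 unit below the others, and 6.39, 6.86 and 6.82 at 6 h, a 1.93-fold lower level that was not called (−0.95 ± 0.32, adjusted p = 0.0279). Without control replicate 2 the 6 h log2 change was −1.34 and was called, as it also was without 6 h replicate 2 or 3 (−1.03 and −1.02) and with arrays centred on the hybridization controls (−1.11). At 12 h, at 4.97, 4.30 and 4.51, it had fallen 8.28-fold (−3.05 ± 0.32, adjusted p = 1.60e-05). LOC100245801 ran from 6.38 to 6.55 in the control, 6.79 to 7.38 at 6 h and 6.13 to 6.47 at 12 h, and was not called in any comparison.

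The 12 h and 6 h leaves were compared directly to see which members moved on. In that comparison 3 members (7.89%) had gone up and 6 (15.8%) had gone down, beside 2.34% and 4.54% of all probe sets tested and 3.45% and 6.95% of the annotated ones. Higher were the carrier LOC100253234, the auxin-induced LOC100241166 (3.70-fold, log2 1.89 ± 0.22, adjusted p = 0.000356) and the GAS1-like LOC100266028 (2.60-fold, adjusted p = 0.000232). Lower were the cytokinin oxidase LOC100267760 (4.28-fold, −2.10 ± 0.32, adjusted p = 0.00118), gibberellin 2-oxidase (3.10-fold, adjusted p = 4.17e-05), both probe sets of the IAA4-like LOC100264878 (A 2.48-fold, B 3.10-fold), the IAA4-like LOC100259648 (2.83-fold) and the IAA19-like probe set. Gibberellin 2-oxidase differed from the others in that it was up-regulated at both times and lower at the later one. None of the 4 SAUR-like probe sets, the ARFs or the brassinosteroid members was called in this comparison.

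**Figure D3:**
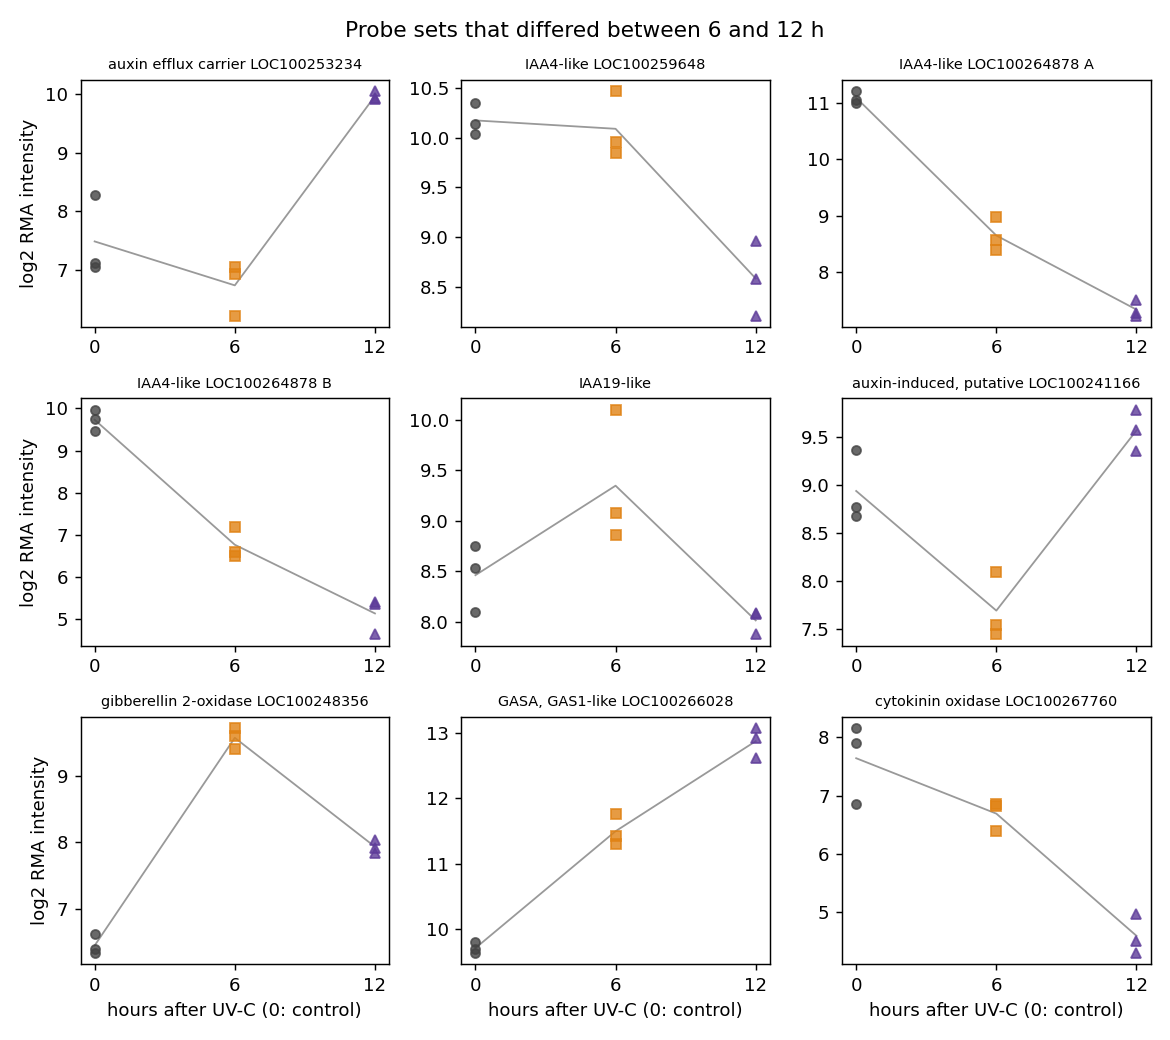
Log2 RMA intensity (y axis, scaled per panel) against hours after UV-C (x axis, 0 is the control) for the 9 probe sets called between 12 h and 6 h; points are single arrays and the grey line joins the group means. LOC100253234 and LOC100241166 have their lowest group means at 6 h and their highest at 12 h, though the 6 h arrays of the former and the 12 h arrays of the latter overlap the control, gibberellin 2-oxidase peaks at 6 h, and both probe sets of LOC100264878 fall in 2 steps.

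The values next to the limit of the call were as follows. At 6 h the called members with the smallest changes were the ARF8-like LOC100258129 and the IAA8-like LOC100253148 (log2 −1.06 each), and the uncalled one with the largest change was the cytokinin oxidase LOC100267760 (−0.95). At 12 h these were LOC100263592 (1.05) and the putative ARF LOC100263801 (−0.88).

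Genes of the same pathways, and expansins as growth genes downstream, were read from 45 further probe sets that carry none of the 8 words. At 6 h, 11 (24.4%) were up- and 16 (35.6%) down-regulated, against 11.9% and 14.7% of all probe sets tested. The list was drawn from the annotated probe sets, of which 17.8% were up and 21.1% down. At 12 h these were 7 (15.6%) and 15 (33.3%), against 14.7% and 17.5% of all and 21.6% and 25.1% of the annotated probe sets. The share that rose at 12 h was thus near that of all probe sets and under that of the annotated ones. Of the 16 and 15 that fell, 7 at each time were expansins, so these shares do not describe the hormone pathway genes alone. Expansins, which loosen cell walls, fell in 7 of 8 probe sets (87.5%) at both times, against 21.1% and 25.1% of the annotated probe sets. Their median log2 changes were −3.36 and −3.61. LOC100258655 alone was not called (0.10 and 0.15), and LOC100244103 gave more than 1 of the falls. LOC100245911 may serve as an example of a moderate one: from 6.63, 6.75 and 6.67 in control leaves it went to 4.79, 4.18 and 4.16 and to 3.66, 3.61 and 3.38. It fell 4.96-fold at 6 h, and its 12 h arrays were near the median of 3.58 for probe sets outside the annotated tables, so no fold is given there. The Dwarf1-like brassinosteroid synthesis gene LOC100258158 fell 3.51-fold and 4.26-fold, from 7.19, 7.05 and 8.63 to 5.57 to 6.00 at 6 h and 5.36 to 5.68 at 12 h.

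Receptors, kinases and the other genes on the pathway list gave a mixed picture. The TIR1-type genes LOC100263524 and LOC100264085 were not called at either time, with log2 changes of −0.64 and −0.37 at 6 h and −0.69 and 0.03 at 12 h. Of 15 probe sets for brassinosteroid signalling (BAK1 or SERK co-receptors, shaggy-like kinases and an EBS1-like gene), 5 (33.3%) were up- and 4 (26.7%) down-regulated at the earlier time, with 3 up and 2 down at the later one; the share down at the later time, 13.3%, was under the 17.5% of all probe sets. Of 14 probe sets for the GRAS family, to which DELLA proteins belong, 5 (35.7%) went up and 3 (21.4%) down by 6 h. By 12 h, 2 (14.3%) were up and 4 (28.6%) down. Both downward shares were near those of the annotated probe sets. The upward share was above the 17.8% of the annotated probe sets at 6 h, and at 12 h about the 14.7% of all probe sets. LOC100251782 alone gave most of the GRAS rises at 6 h, and LOC100252099 more than 1 of those in brassinosteroid signalling. With probe sets of 1 gene averaged, 24 of 38 on the pathway list were called at either time, against 30 of 45 probe sets. The share of all probe sets called at either time was not counted, so these numbers have no background beside them. The cytokinin response regulator LOC100258759, of a family that cytokinin induces in Arabidopsis, rose 4.35-fold and 3.05-fold, from 6.57, 6.24 and 6.18 to 8.24, 8.54 and 8.57 and to 7.85, 8.28 and 7.68. The flavin monooxygenase LOC100245859, titled like enzymes of auxin synthesis, was not called (log2 −0.43 at 6 h and 0.45 at 12 h).

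**Figure D4:**
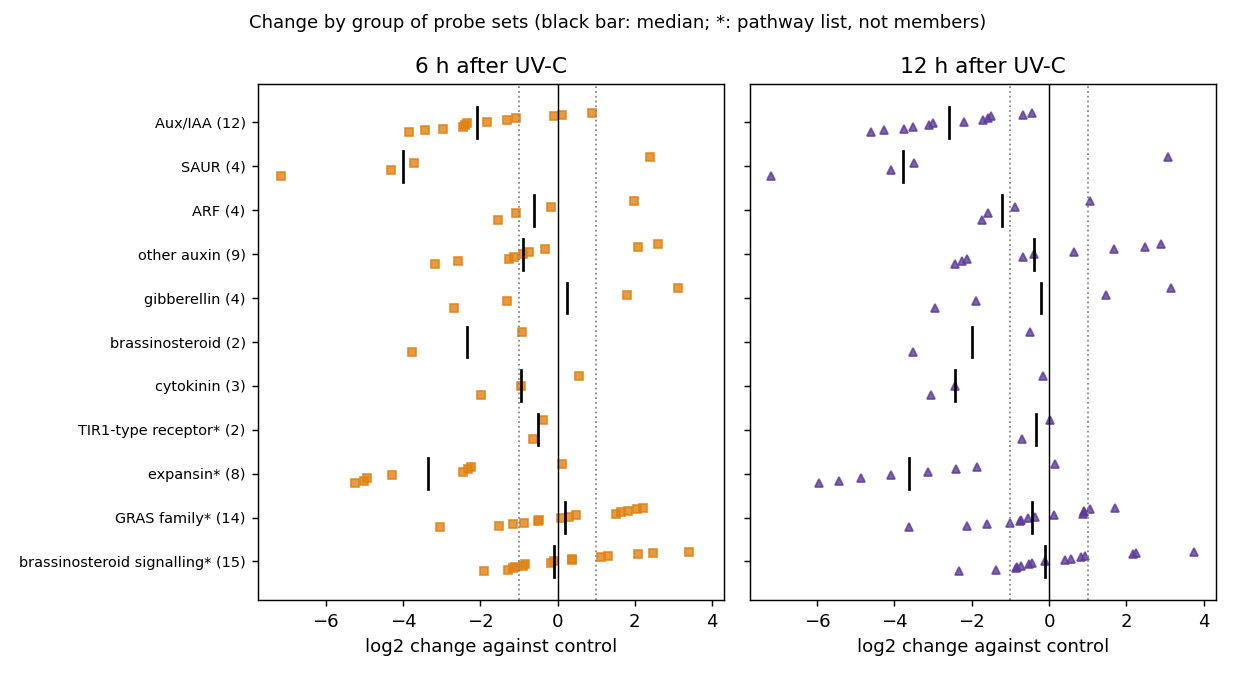
Log2 change against the control leaves (x axis) at 6 h (left, squares) and 12 h (right, triangles), 1 point per probe set, by group of genes with the number of probe sets in brackets; black bars are medians, dotted lines mark 2-fold, and groups with an asterisk are pathway genes outside the word rule. Aux/IAA, SAUR-like and expansin medians lie between −2.08 and −4.01 at both times, while GRAS and brassinosteroid signalling probe sets spread to both sides of 0.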

How the data were processed

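The authors background-corrected, quantile-normalised and summarised the arrays with RMA, and deposited linear intensity values per probe set for 9 arrays; the genome build is not given in the sources used here. The deposited annotated tables repeat these intensities (largest relative difference 9.48e-06) and hold titles; their columns of SAM scores, q-values and fold changes were not used. The values were log2-transformed, 165 Affymetrix control probe sets were left out, and the 3 groups were fitted together with limma 3.58.1 in R 4.3.3 (lmFit, eBayes, no filter on low values), with Benjamini-Hochberg adjustment over 16436 probe sets. The fit was also run on simulated data with independent noise and known changes in a small part of the probe sets. These arrays differ from that setting, so the run does not show how the fit does on them. Array medians of log2 intensity ran from 6.67 to 6.87, and arrays of 1 group correlated at 0.988 or more; the number of arrays limits the precision. Nothing says whether replicate leaves came from separate vines, so the p-values weigh differences of means against the spread between these samples only.

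The members, roles and lists were chosen with earlier results of these data known. Named were, for each hormone and time, the called members with the largest changes (for auxin up to 8 in each direction, for other hormones up to 4), every member called between 12 h and 6 h (up to 6 in each direction), every member of a role with 4 or fewer, and the values next to the limit. The pathway genes named were chosen after their values were seen. Alternatives concerned thresholds, the fit, scaling, dim probe sets, shared probe sets, averaging by symbol, a replicate block and each array left out. Sequences and promoter motifs were not analysed here. The values of 1 member are not reported here; it is included in the counts.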

Additional observations from a re-analysis of the deposited data

Results flagged for a closer look

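Of the 38 probe sets, 9 stood out because their levels at 12 h and 6 h after UV-C differed by the limma test of that difference (adjusted p under 0.05 and at least 2-fold). Of the members, 7.89% were higher and 15.8% lower at 12 h. Of all probe sets tested these shares were 2.34% and 4.54%, and of the annotated ones 3.45% and 6.95%. The log2 differences of 12 h against 6 h were 3.22 for the carrier LOC100253234, 1.89 for the auxin-induced LOC100241166 and 1.38 for the GAS1-like LOC100266028. They were −1.50 for the IAA4-like LOC100259648, −1.31 and −1.63 for probe sets A and B of the IAA4-like LOC100264878, −1.33 for the IAA19-like probe set, −1.63 for gibberellin 2-oxidase and −2.10 for the cytokinin oxidase LOC100267760. The 12 h arrays also had the lowest 3′ over 5′ GAPDH ratios (log2 1.26 to 1.47), and the part of this in the differences was not tested. With 3 arrays per group, no test for a single outlying array was made.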

How the results depend on the processing

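The counts of members called against the control stayed within 1.5 times under every alternative run. Leaving out 1 array at a time gave 21 to 23 fallen and 6 to 7 risen at 6 h, and 23 fallen and 6 to 7 risen at 12 h. With array medians set equal, 19 fell and 7 rose at 6 h, and with arrays centred on 18 hybridization controls 25 fell and 6 rose; these scalings moved the median change of all probe sets at 6 h from −0.03 to 0.11 and −0.19. Between 12 h and 6 h, 5 members were higher and 18 lower with no fold threshold, and 1 was higher without the probe sets that can bind several transcripts, since 2 of the 3 are of that kind. With a replicate block, the counts of members were the same (22 fallen and 6 risen at 6 h), and 29 instead of 30 pathway probe sets were called at either time. Same-numbered arrays deviated from their group means with correlations of −0.16 to 0.14, so the numbers were not taken to pair the samples. No called member reversed its direction under any alternative run. The cause of calls lost or gained was not tested. Promoter motifs were planned and not run. RMA values compress low signals, so changes of dim probe sets may be understated.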
